A study of Mus musculus with 16 samples.

Results

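The comparison described here sets mouse striatum taken 3 d after an ATP injection against intact striatum, with both genotypes together. Its 8 libraries were chosen by their labels from the 16 of the study: 4 from striatum at 3 d (2 WT and 2 GS) and 4 from intact striatum (2 WT and 2 GS). WT is wild type, and GS was read as carrying the G2019S change in LRRK2 that the study's title names. The injected animals received 0.8 µl of 500 mM ATP into the striatum of 1 hemisphere through a stereotactic needle under tribromoethanol anaesthesia. The intact groups carry no treatment or time label, and whether those mice were anaesthetised or operated on is unknown from the labels, so needle, injected volume and ATP cannot be told apart in this comparison. Strain, age, sex, the number of animals behind a library and whether GS is a knock-in or an added copy are not given either. The labels call the 2 replicates of a group biological, and the p-values measure the spread between such libraries. The question is which genes of the striatum are at another level 3 d after this injury, at a stage between the 6 h and 15 d samples of the same study, and in which cell types, as far as marker genes tell.

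ATP outside the cell is a danger signal: damaged cells release it, purinergic receptors of microglia and astrocytes sense it, and at high doses it also injures cells through P2X7. In the days after a brain lesion, microglia and infiltrating monocytes take up debris, lose part of their resting profile and divide, while astrocytes build up intermediate filaments around the lesion. Most striatal neurons are GABAergic projection neurons of the direct and indirect dopamine pathways, marked by dopamine D1 or D2 receptors. LRRK2 is a kinase of Rab proteins that microglia, monocytes and striatal neurons express.

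The 8 libraries held 53895464 to 63948110 counts each. They fell into their stages on the first principal component, which held 65.6% of the variance. The striatal label fits the markers: Ppp1r1b, the DARPP-32 gene of projection neurons, was at 1951, 2048, 2231 and 2419 CPM in the intact libraries (CPM, counts scaled to a common library size by TMM). Here and below values are in the order WT replicate 1, WT replicate 2, GS replicate 1, GS replicate 2. Cortical marker levels were not alike across the libraries, however. Genes listed as markers of cortical excitatory neurons summed to 347 CPM in WT intact replicate 1, against 171 to 196 CPM in the other intact libraries and 127 to 166 CPM at 3 d. They include Rorb, which astrocytes also express, so the sum is not of cortical transcripts alone. In the intact libraries the 9 cortical markers, averaged as log2 CPM, were 4.31, 2.48, 2.98 and 3.00. At 3 d they were 2.04, 1.62, 1.47 and 2.24, so their mean moved with the stage compared. It is taken up again beside the neuronal results.

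At 3 d 40.3% of the 18670 genes tested differed from intact striatum (edgeR quasi-likelihood test with genotype as a covariate, Benjamini-Hochberg adjusted p under 0.05). Of these 7517 genes, 3873 rose (20.7% of those tested) and 3644 fell (19.5%). The 2 directions differed in size. Rises reached 8-fold or more in 128 genes and 4- to 8-fold in 285, while no fall reached 8-fold, 12 were 4- to 8-fold and 70.0% stayed under 1.5-fold. A rise of at least 2-fold was seen in 6.31% of the genes tested and a fall of that size in 1.95%. Each of the 7517 genes had the same sign in WT and in GS, both estimated in a single fit of the 8 libraries. The genes were called over both genotypes together, so this agreement is not independent of the call. In 3367 of the genes that rose, all 4 libraries at 3 d lay above all 4 intact libraries, and in 3046 of those that fell they lay below. Called or not, 3727 of the 18670 genes tested had all 3 d libraries above all intact ones, and 3483 had them below. With a test against 1.5-fold (glmTreat) 1230 genes passed, 86.4% of them higher at 3 d. The median log2 fold change over all genes was -0.02.

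**Figure D1:**
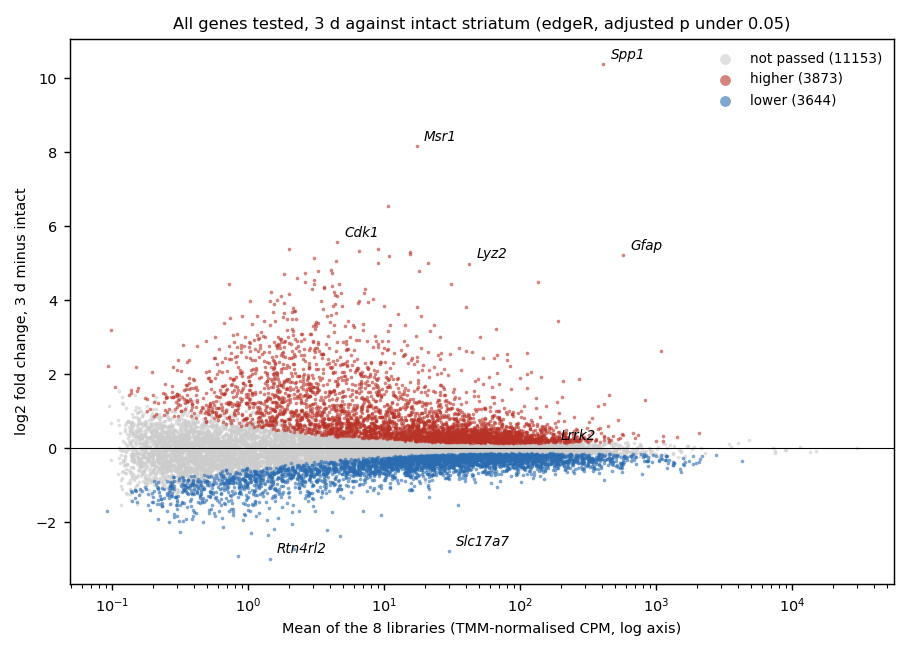
Each point is 1 of the 18670 genes tested, by its mean level over the 8 libraries (x axis, TMM-normalised CPM, log axis) and its log2 fold change at 3 d minus intact (y axis), coloured by whether it rose, fell or did not pass. The rises reach 10.38 (Spp1) while the falls stop at -2.99 (Rtn4rl2), and Lrrk2 lies near 0.

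The genes with the largest rises were those of phagocytes, complement, dividing cells and reactive astrocytes. Spp1, which codes for osteopontin, a secreted phosphoprotein of activated microglia and macrophages (NCBI Gene 20750, mm10 chromosome 5, positions 104435111 to 104441053), led them. It was at 0.178, 0.902, 0.752 and 0.598 CPM in the intact libraries and 311, 747, 814 and 1412 CPM at 3 d. From 10 to 48 reads per intact library it went to 1332-fold as much, a log2 fold change of 10.38 ± 0.44 (± standard error, edgeR adjusted p = 2.72e-07). Msr1, the class A scavenger receptor of macrophages (mm10 chromosome 8, positions 39543232 to 39642750), followed with 0.142, 0.0751, 0.137 and 0.12 CPM in the intact libraries and 21.4, 36.2, 29.7 and 51 CPM at 3 d. Its intact level rests on 4 to 8 reads a library, and its log2 fold change was 8.16 ± 0.32 (edgeR adjusted p = 1.72e-07). Gfap, the astrocyte intermediate filament (mm10 chromosome 11, positions 102887336 to 102897200), was at 27.2, 32.8, 31.2 and 27.7 CPM in the intact libraries and 899, 1124, 1101 and 1304 CPM at 3 d. It rose 37.1-fold (5.21 ± 0.12, edgeR adjusted p = 2.52e-09), and the 4 libraries at 3 d differed by less than they did for most of the other genes.

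Phagocyte genes made up much of the rest. Ms4a6c, a membrane gene of monocytes, was at 0.445, 0.319, 0.513 and 0.41 CPM in the intact libraries and 16.3, 15.9, 14.7 and 24.1 CPM at 3 d and rose by 5.38 ± 0.19 on the log2 scale. Siglec1, the sialoadhesin of macrophages, was at 0.231, 0.301, 0.273 and 0.444 CPM in the intact libraries and 4.88, 13.5, 11.8 and 21 CPM at 3 d (5.33 ± 0.38). Lgals3, the galectin-3 gene of phagocytic cells, was at 0.552, 1.31, 0.632 and 0.513 CPM in the intact libraries and 12.7, 38.3, 28.3 and 40.8 CPM at 3 d (5.31 ± 0.41). In each of these the intact and injured libraries lay far apart, and for Siglec1 and Lgals3 WT 3 d replicate 1 was the lowest of the injured libraries. The complement receptor gene C3ar1 was at 1.14, 0.563, 0.547 and 0.82 CPM in the intact libraries and 14.7, 30.4, 26.9 and 48.1 CPM at 3 d (5.25 ± 0.35), and Ch25h, the cholesterol 25-hydroxylase that macrophages induce, at 0.392, 0.62, 0.666 and 0.598 CPM in the intact libraries and 11.1, 24.3, 20.9 and 28.2 CPM at 3 d (5.21 ± 0.28). Both lay lowest in WT 3 d replicate 1 and highest in GS 3 d replicate 2.

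Of the dividing-cell genes, Cdk1, the kinase that drives entry into mitosis (mm10 chromosome 10, positions 69335146 to 69352912), was at 0.107, 0.188, 0.308 and 0.137 CPM in the intact libraries and 3.79, 12.4, 7.31 and 11.6 CPM at 3 d and rose by 5.56 ± 0.44 (edgeR adjusted p = 8.45e-06). Pclaf, a PCNA-binding factor of replicating cells, was at 0.0712, 0.263, 0.188 and 0.137 CPM in the intact libraries and 3.24, 6.94, 5.97 and 7.42 CPM at 3 d (5.15 ± 0.35). The intact values of both are 18 reads or fewer in each library. In 2 further genes a single library carried much of the rise. C3, the central complement component (mm10 chromosome 17, positions 57203967 to 57228136), was at 0.0712, 0.15, 0.171 and 0.325 CPM in the intact libraries and 70.5, 4.53, 4.37 and 5.7 CPM at 3 d, so WT 3 d replicate 1 stood far above the rest. Its log2 fold change was 6.54 ± 1.04 (edgeR adjusted p = 0.000647). It was 4.71 without that library, 5.85 without WT intact replicate 1 and 7.49 without GS intact replicate 2, all still called. Il1rn, the interleukin-1 receptor antagonist, showed the same library on top with 0.089, 0.0563, 0.0854 and 0.103 CPM in the intact libraries and 9.77, 1.5, 1.7 and 2.6 CPM at 3 d (5.39 ± 0.67, and 4.42 without it). In both genes the other injured libraries also lay above every intact one, which the rule that picked the largest rises required.

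**Figure D2:**
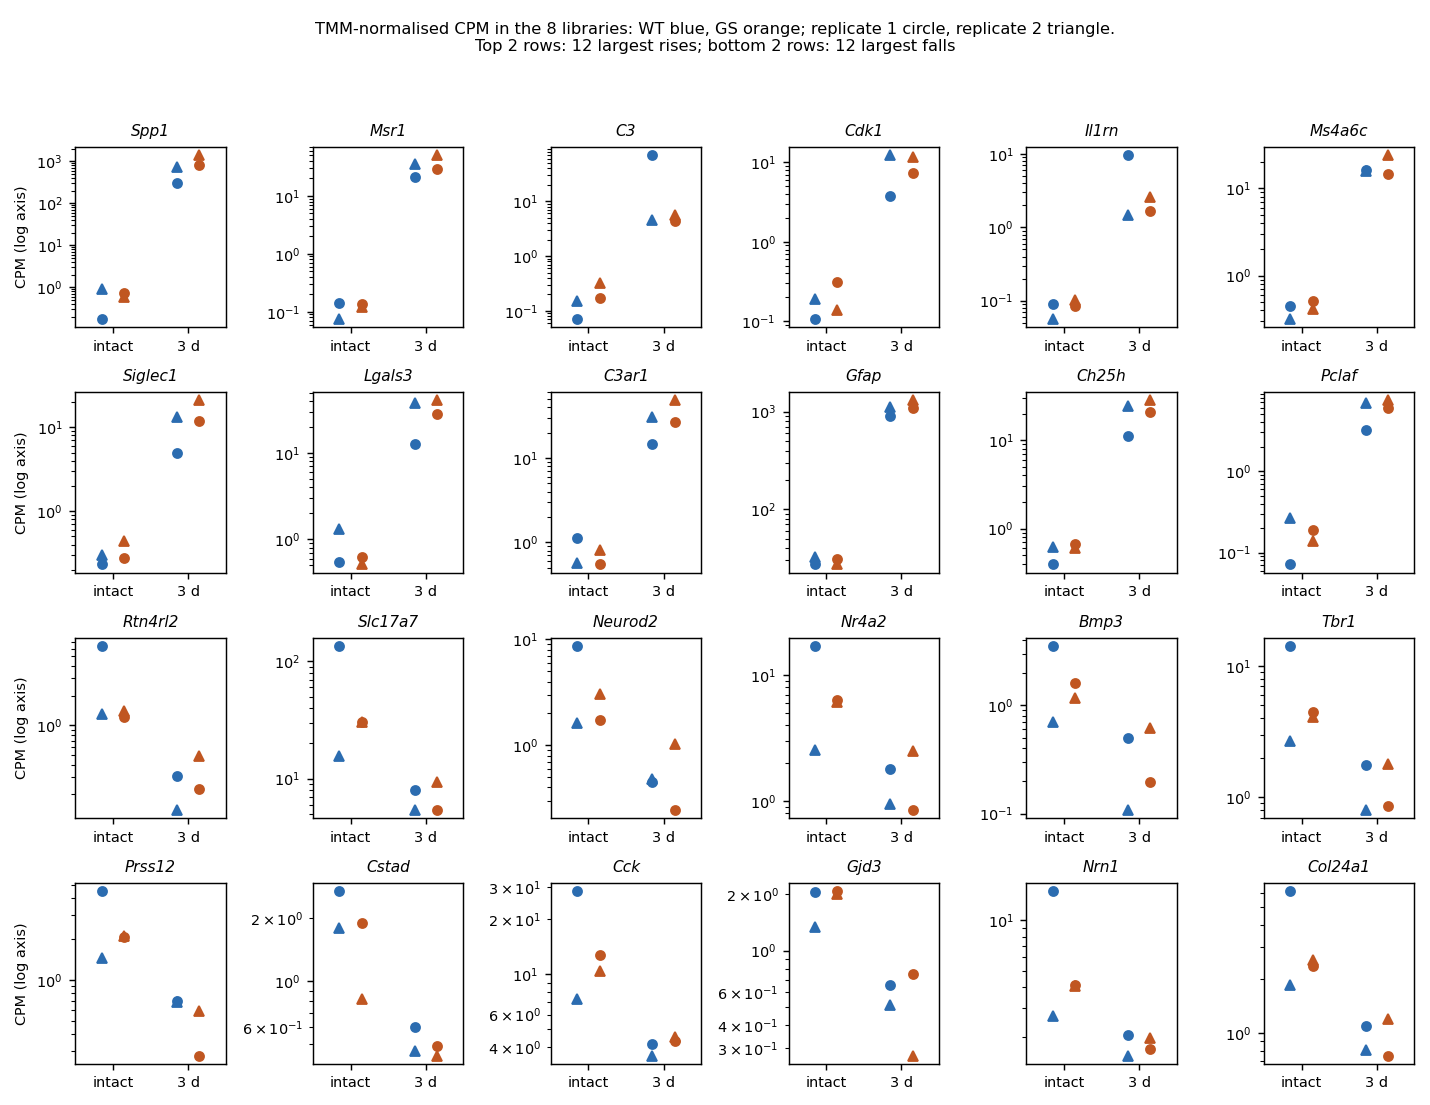
TMM-normalised CPM (log axis) of the 12 genes with the largest rises (upper panels) and the 12 with the largest falls (lower panels) in the 4 intact and 4 injured libraries. WT is blue and GS orange, circles are replicate 1 and triangles replicate 2. The genes were picked for having no overlap between the stages. C3 and Il1rn are highest in WT 3 d replicate 1, and most falls start from a high value in WT intact replicate 1.

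Promoter sequences were set beside these groups because members of a group moved together. RefSeq promoters of GRCm38.p6 run from 250 bases before to 50 after the start of the gene, and 13531 of the genes tested have one. Each motif was searched on both strands, and a match is a description of the letters only. The 5 shown are those of the leading genes of 4 groups that hold the group's motif, which is in capitals, 5′ to 3′ on the gene's strand. Cdk1 (chr10:69352863-69353162, minus strand) and Mki67 (chr7:135716330-135716629, minus strand) show the CHR element TTTGAA of cell cycle genes, with 2 matches each, and Oas1a (chr5:120907476-120907775, minus strand) shows 2 overlapping matches to the interferon response element (GAAA, any 2 bases, then GAAA). Spp1 (chr5:104434861-104435160, plus strand) holds GAGGAAGT, the site of the myeloid factor PU.1. Osmr (chr15:6874264-6874563, minus strand) holds TGATTCA at position 4 after the start. It matches TGANTCA, the pattern searched for AP-1, which allows any base in the middle. Rtn4rl2, the gene that fell most, held none of the 9 motifs searched and is not shown.
Cdk1: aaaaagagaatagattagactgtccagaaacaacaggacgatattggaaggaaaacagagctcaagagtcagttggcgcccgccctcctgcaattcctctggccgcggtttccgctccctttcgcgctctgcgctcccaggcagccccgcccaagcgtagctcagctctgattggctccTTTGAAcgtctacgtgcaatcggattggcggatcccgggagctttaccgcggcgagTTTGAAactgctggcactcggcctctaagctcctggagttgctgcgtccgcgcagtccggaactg
Mki67: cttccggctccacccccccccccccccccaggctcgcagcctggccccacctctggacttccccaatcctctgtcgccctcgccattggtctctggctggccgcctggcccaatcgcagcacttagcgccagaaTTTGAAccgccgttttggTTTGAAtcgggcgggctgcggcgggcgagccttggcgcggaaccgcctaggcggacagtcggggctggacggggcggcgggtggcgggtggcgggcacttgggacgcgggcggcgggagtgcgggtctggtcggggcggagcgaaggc
Oas1a: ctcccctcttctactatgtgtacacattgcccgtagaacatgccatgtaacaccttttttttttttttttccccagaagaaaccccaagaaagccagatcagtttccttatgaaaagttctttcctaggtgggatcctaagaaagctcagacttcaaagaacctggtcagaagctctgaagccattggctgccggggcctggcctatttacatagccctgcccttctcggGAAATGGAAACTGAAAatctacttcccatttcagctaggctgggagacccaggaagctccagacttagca
Spp1: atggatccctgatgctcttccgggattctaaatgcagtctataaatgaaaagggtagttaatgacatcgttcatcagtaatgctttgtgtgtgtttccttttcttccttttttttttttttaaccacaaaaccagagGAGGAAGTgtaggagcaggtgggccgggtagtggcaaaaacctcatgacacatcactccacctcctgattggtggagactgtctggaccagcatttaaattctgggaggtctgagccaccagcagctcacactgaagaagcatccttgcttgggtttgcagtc
Osmr: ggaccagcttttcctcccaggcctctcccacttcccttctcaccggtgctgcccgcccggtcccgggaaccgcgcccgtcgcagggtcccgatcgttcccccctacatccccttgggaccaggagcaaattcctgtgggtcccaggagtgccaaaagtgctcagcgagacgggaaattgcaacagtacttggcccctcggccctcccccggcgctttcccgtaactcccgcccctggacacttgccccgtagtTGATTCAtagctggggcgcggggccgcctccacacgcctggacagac

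Among 15 mitosis genes with a promoter, 10 held TTTGAA (66.7%), against 15.1% of all promoters and 26.3% of those of genes that rose at least 4-fold. CCAAT stood in 86.7% of the mitosis promoters and 42.2% of all. The interferon element was in 10 of 15 interferon-stimulated genes (66.7%), 10.2% of genes that rose at least 4-fold and 3.64% of all. E2F sites, searched as TTTGGCGC or TTTCGCGC, were in 5 of 15 DNA replication genes (33.3%) and 1.59% of all. The PU.1 site was in 1 of 12 phagocytic microglia genes, which is Spp1, in 2 of 9 Fc receptor and signalling genes, in 0 of 8 homeostatic microglia genes, in 0 of 7 myeloid transcription factor genes and in 3.41% of all. Matches to the AP-1 pattern, with any middle base, were in 2 of 10 pan-reactive astrocyte genes (20%) and 6.46% of all. CCAAT, which cholesterol synthesis genes carry next to sterol elements, was in 12 of 12 of their promoters. TTTGAA and CCAAT are short and common, and E2F, PU.1 and AP-1 counts are small.

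**Figure D3:**
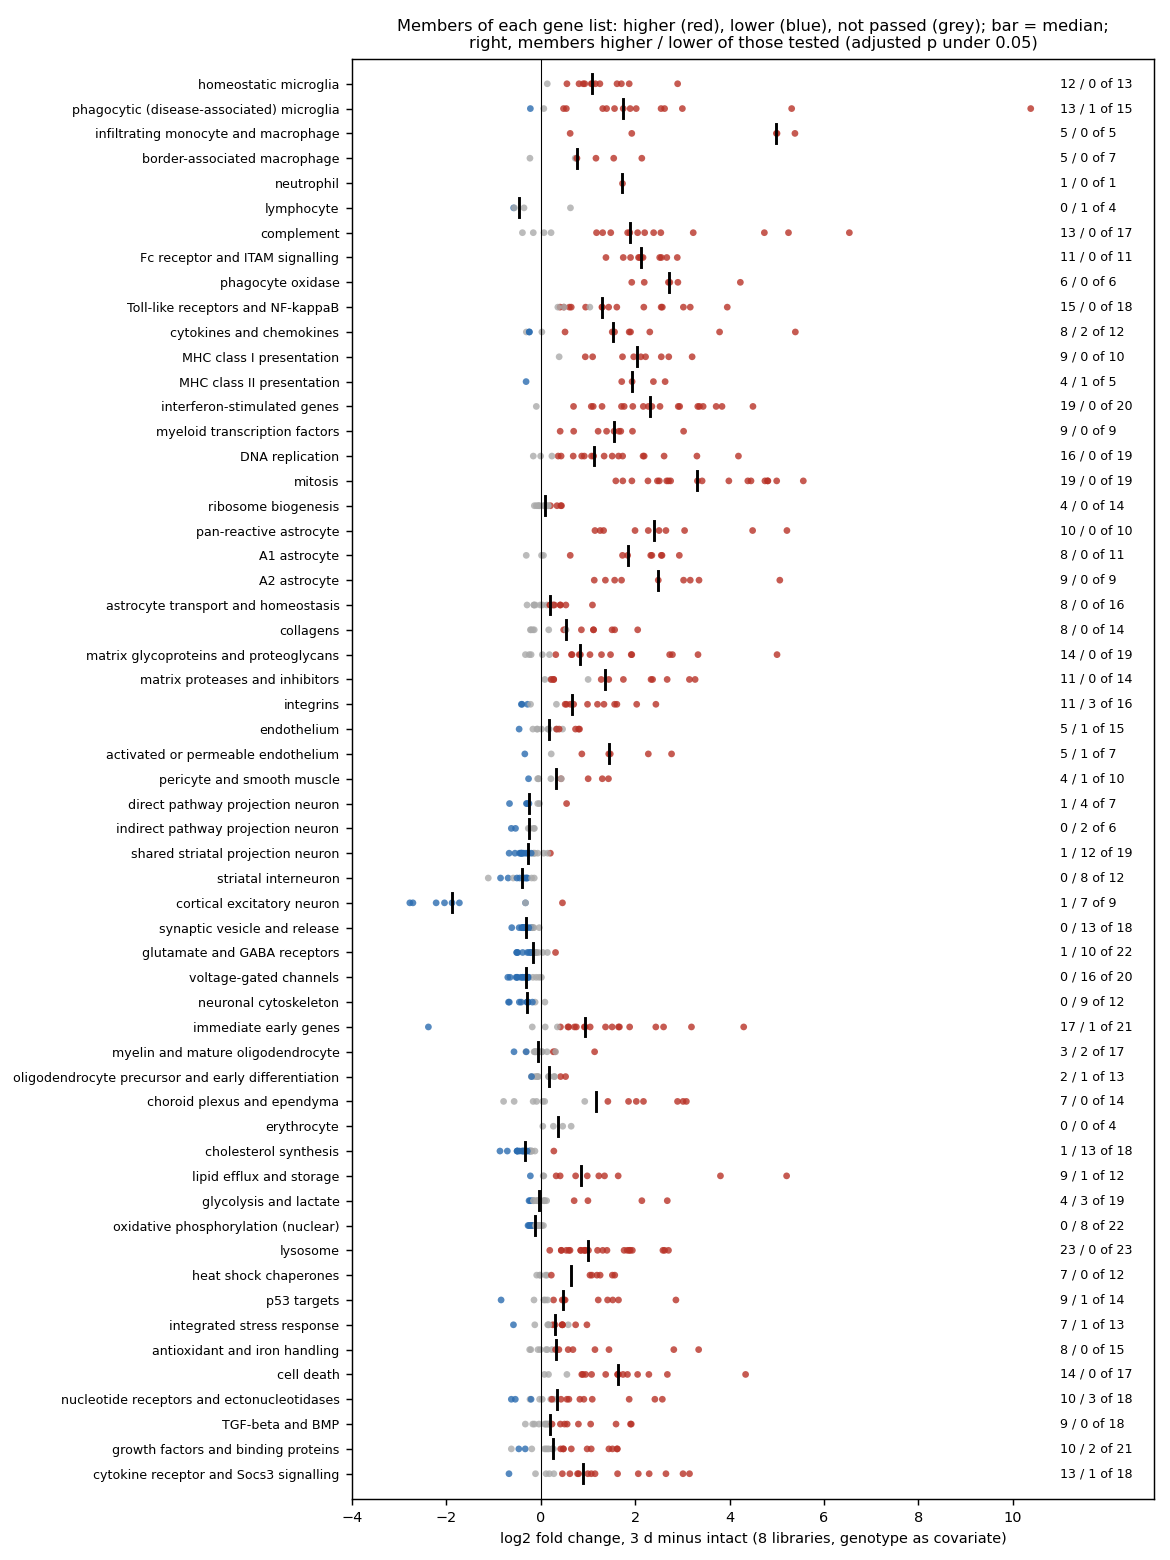
Log2 fold change at 3 d minus intact (x axis) of the members of each gene list (1 line a list), with members that rose in red, that fell in blue and that did not pass in grey; the bar is the list's median and the figures at the right are members higher and lower of those tested. Immune, lysosome, mitosis and astrocyte lists lie to the right of 0 and most neuronal lists and the cholesterol list just to its left.

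Most microglia and macrophage genes rose. Of 13 homeostatic microglia genes, which mark resting microglia, 12 rose and 0 fell, with a median log2 fold change of 1.09 against -0.02 over all genes and a share of 20.7% higher among all genes. Fcrls, an Fc receptor-like gene of microglia, was at 3.7, 2.82, 3.3 and 3.23 CPM in the intact libraries and 15.3, 26.8, 23.3 and 33 CPM at 3 d (2.90 ± 0.20). Olfml3 (1.71 ± 0.12) and the P2Y-like receptor gene Gpr34 (1.61 ± 0.21) also rose. Their summed level was 506 to 536 CPM in intact striatum and 890 to 1679 CPM at 3 d. In 11 of 13 genes all 3 d libraries lay above all intact ones, against 3727 of the 18670 genes tested. In bulk tissue more cells of a type and more RNA per cell cannot be told apart.

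Genes of phagocytic microglia, those raised in disease models, rose in 13 of 15 cases (median 1.74). Besides Spp1 and Lgals3, Cd68, a lysosomal glycoprotein of phagocytes, was at 11.2, 11.7, 11.6 and 10.3 CPM in the intact libraries and 50.5, 99.99, 90.9 and 122 CPM at 3 d (3.00 ± 0.21), and the protease gene Ctsd at 282, 284, 312 and 323 CPM in the intact libraries and 1118, 2086, 1914 and 2347 CPM at 3 d (2.62 ± 0.17). The 2 exceptions are genes of lipid handling. Lpl, lipoprotein lipase, fell (-0.22 ± 0.05, edgeR adjusted p = 0.00588) and Apoe, the main brain apolipoprotein, did not pass (0.06 ± 0.10). All 5 genes tested of the list for infiltrating monocytes and macrophages rose (median 4.99). Thbs1, thrombospondin 1, was at 0.142, 0.507, 1.01 and 0.53 CPM in the intact libraries and 9.44, 13.1, 13.9 and 33.2 CPM at 3 d (5.0 ± 0.36), Lyz2, the lysozyme of the myeloid lineage, at 2.62, 2.29, 2.61 and 2.24 CPM in the intact libraries and 32.5, 74.8, 80.2 and 139.6 CPM at 3 d (4.99 ± 0.33) and Fn1, fibronectin, rose by 1.93 ± 0.13. Fn1 already had 985 to 1792 reads in each intact library. Ccr2, Arg1, Chil3 and 3 more listed monocyte genes were not analysed here, so entry of monocytes cannot be judged from the 5 that were. Summed, the 5 went from 22.4 to 35.4 CPM to 117 to 341 CPM.

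Border-associated macrophage genes rose in 5 of 7 cases (median 0.76), with the scavenger receptor gene Stab1 at 11.3, 10.05, 9.6 and 9.91 CPM in the intact libraries and 31.5, 52, 40.7 and 56.5 CPM at 3 d (2.14 ± 0.16), and F13a1 (1.54 ± 0.20) and the hyaluronan receptor gene Lyve1 (1.17 ± 0.21) after it. Cbr2, the next of the 5 by size, was lost without any of 5 libraries (adjusted p of 0.0577 to 0.119 without WT intact replicate 1 or 2, GS intact replicate 2, WT 3 d replicate 2 or GS 3 d replicate 1). The smallest of the 5 rises is not named here. Only Csf3r, a receptor that microglia also express, was tested of 10 neutrophil genes, and it rose by 1.72 ± 0.15, from 10.6, 12.7, 12 and 12.7 to 25.5, 38.1, 45.2 and 52 CPM. Of 14 lymphocyte genes 4 were tested and none of these rose, so entry of lymphocytes cannot be judged from them. Cd4 fell (-0.58 ± 0.10) from 99.2, 98.6, 124 and 134 to 85.2, 69.3, 77.2 and 71.9 CPM. Which cells gave the Cd4 reads, which were many in intact striatum too, was not tested. Ptprcap, at 0.171 to 0.463 CPM in the 8 libraries, did not pass. All 9 myeloid transcription factor genes rose (median 1.55). Runx1 was at 0.659, 1.11, 0.7 and 0.837 CPM in the intact libraries and 5.67, 5.4, 5.97 and 10.3 CPM at 3 d (3.02 ± 0.25), and Spi1, which codes for PU.1, and Irf8 rose by 1.94 ± 0.13 and 1.65 ± 0.16.

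The machinery by which phagocytes sense, bind and kill rose in most of its parts. Of 17 complement genes 13 rose and 0 fell (median 1.88), led by C3, C3ar1 and the C5a receptor gene C5ar1, which was at 0.196, 0.0939, 0.444 and 0.495 CPM in the intact libraries and 6.87, 7.03, 6.82 and 11.1 CPM at 3 d (4.74 ± 0.29). C4b, a classical pathway component of glia, rose by 3.23 ± 0.18. All 11 Fc receptor and ITAM signalling genes rose (median 2.13), among them the inhibitory receptor gene Fcgr2b at 1.62, 2.03, 1.81 and 1.54 CPM in the intact libraries and 8.84, 12.2, 12.5 and 19.4 CPM at 3 d (2.89 ± 0.21), the shared signalling chain gene Fcer1g (2.67 ± 0.18), the kinase gene Btk (2.55 ± 0.21) and Fcgr3 (2.52 ± 0.13). The 6 genes of the phagocyte oxidase, which makes superoxide, all rose (median 2.72), and its catalytic subunit gene Cybb was at 0.463, 0.357, 0.393 and 0.495 CPM in the intact libraries and 6.91, 7.23, 6.8 and 11.4 CPM at 3 d (4.23 ± 0.21). Subunits Rac2, Cyba and Ncf4 rose by 2.90 ± 0.14, 2.73 ± 0.18 and 2.70 ± 0.19.

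Toll-like receptor and NF-kappaB genes rose in 15 of 18 cases (median 1.30). The bacterial lipoprotein receptor gene Tlr2 was at 0.712, 1.05, 0.752 and 1.16 CPM in the intact libraries and 12, 11.7, 12.2 and 21.6 CPM at 3 d (3.95 ± 0.22), and its partner gene Tlr1, the co-receptor gene Cd14 and the endosomal receptor gene Tlr13 rose by 3.02 ± 0.24, 3.17 ± 0.18 and 2.57 ± 0.22. Of 12 cytokine and chemokine genes 8 rose and 2 fell (median 1.54). Beside Il1rn, the scavenger chemokine gene Cxcl16 was at 0.267, 0.357, 0.393 and 0.12 CPM in the intact libraries and 2.84, 3.64, 4.55 and 4.95 CPM at 3 d (3.79 ± 0.30), and Ccl6 (2.31 ± 0.22) and Tgfb1 (1.90 ± 0.16) rose. The 2 that fell were Cxcl14 (-0.25 ± 0.07) and the neuronal chemokine gene Cx3cl1 (-0.24 ± 0.08). Cxcl14 was not called without GS intact replicate 2, WT 3 d replicate 2 or GS 3 d replicate 1, nor Cx3cl1 without these or WT intact replicate 2, GS intact replicate 1 or GS 3 d replicate 2 (adjusted p of 0.0519 to 0.0989). Il1b, Tnf, Il6, Ccl2 and Cxcl10 were not analysed here.

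Most antigen presentation genes rose. Of 10 MHC class I genes 9 rose (median 2.04), with the transactivator gene Nlrc5 at 0.374, 0.413, 0.461 and 0.256 CPM in the intact libraries and 2.5, 3.56, 2.66 and 5.33 CPM at 3 d (3.20 ± 0.30) and the heavy chain gene H2-K1, the immunoproteasome gene Psmb8 and the light chain gene B2m higher by 2.71 ± 0.16, 2.55 ± 0.20 and 2.22 ± 0.18. MHC class II genes were at low levels, and 4 of 5 rose. Cd74, the invariant chain gene, was at 1.58, 0.601, 1.28 and 1.18 CPM in the intact libraries and 2.91, 6.57, 8.69 and 12.7 CPM at 3 d (2.63 ± 0.35), H2-Aa rose by 2.38 ± 0.33 and H2-Ab1 by 1.71 ± 0.32. H2-DMa, the exception, fell (-0.31 ± 0.09), a call that was lost without WT intact replicate 1 or GS intact replicate 1 (adjusted p = 0.0638 and 0.0537).

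Interferon-stimulated genes, which act against viruses and are turned on through interferon receptors, rose in 19 of 20 cases (median 2.32). Ifi27l2a was at 0.196, 0.301, 0.205 and 0.171 CPM in the intact libraries and 1.68, 6.37, 5.14 and 6.85 CPM at 3 d (4.49 ± 0.44). Irf7, the amplifier of type I interferon, was at 0.57, 0.244, 0.803 and 0.581 CPM in the intact libraries and 2.84, 8.79, 8.04 and 12 CPM at 3 d (3.84 ± 0.37), and the 2′-5′ oligoadenylate synthetase genes Oas1a and Oasl2 rose by 3.71 ± 0.41 and 3.44 ± 0.25. In each of these WT 3 d replicate 1 was the lowest injured library and GS 3 d replicate 2 the highest. The Oas1a promoter shown above carries the interferon element next to the start.

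Most genes of cell division rose. All 19 mitosis genes tested rose with no overlap between stages (median 3.32), and each was at least 2-fold higher. Mki67, the proliferation marker, was at 0.641, 2.22, 0.905 and 1.33 CPM in the intact libraries and 19.4, 49.1, 36 and 59.2 CPM at 3 d (5.0 ± 0.40, edgeR adjusted p = 8.57e-06). Ccnb1, the partner cyclin of CDK1, was at 0.214, 0.394, 0.239 and 0.273 CPM in the intact libraries and 4.18, 11.1, 5.87 and 10.4 CPM at 3 d (4.81 ± 0.37), and Top2a, the topoisomerase of dividing cells, at 0.855, 2.12, 0.82 and 1.18 CPM in the intact libraries and 18.5, 42.5, 29.4 and 48.3 CPM at 3 d (4.80 ± 0.36). The list's sum was 18.6 to 25.8 CPM in intact striatum and 110 to 282 CPM at 3 d. DNA replication genes rose in 16 of 19 cases by smaller steps (median 1.12). The ribonucleotide reductase gene Rrm2 was at 0.641, 1.15, 0.598 and 0.564 CPM in the intact libraries and 6.51, 16.6, 12.3 and 18.4 CPM at 3 d (4.19 ± 0.35), and the helicase subunit gene Mcm6, the licensing factor gene Cdc6 and Gins2 rose by 3.31 ± 0.26, 2.61 ± 0.28 and 2.19 ± 0.32. WT 3 d replicate 1 was the lowest injured library for 19 of 19 mitosis genes. Which cells divided was not tested.

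All 23 lysosome genes rose (median 1.01), 22 of them with no overlap. Gusb, beta-glucuronidase, was at 8.71, 8.87, 9.93 and 10.03 CPM in the intact libraries and 38.5, 67.3, 63.2 and 77.5 CPM at 3 d (2.70 ± 0.16), and Grn, the progranulin gene, at 29.97, 29.7, 32.5 and 34.6 CPM in the intact libraries and 113, 197, 196 and 269.8 CPM at 3 d (2.59 ± 0.17). The cathepsin genes Ctsd and Ctss rose by 2.62 and 1.94 ± 0.12. Summed, lysosome genes went from 2949 to 3224 CPM to 5223 to 8666 CPM, again with WT 3 d replicate 1 lowest for 23 of 23.

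Lipid genes split. Of 12 genes of lipid efflux and storage 9 rose and 1 fell (median 0.86). Besides Ch25h, Plin2, which coats lipid droplets, was at 3.88, 5.54, 5.86 and 5.76 CPM in the intact libraries and 35.5, 85.3, 68.8 and 107 CPM at 3 d (3.81 ± 0.27), the cholesterol exporter gene Abca1 rose by 1.64 ± 0.14 and the esterifying enzyme gene Soat1 by 1.35 ± 0.11. Cholesterol synthesis went the other way, with 13 of 18 genes lower and 1 higher (median -0.34). Insig1, the sterol sensor that holds back SREBP, was at 39.2, 37.2, 34.8 and 35.4 CPM in the intact libraries and 22.7, 22.5, 22.1 and 22.2 CPM at 3 d (-0.71 ± 0.06, edgeR adjusted p = 8.06e-06). Mvk fell by 0.50. For Insig1 all 4 injured libraries lay below all 4 intact ones. With the cortical marker level as a term, 4 of the 13 falls were kept, and Insig1 was then -0.65 (edgeR adjusted p = 0.00248).

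Astrocyte genes of reactivity rose, while 8 of 16 genes of resting function did not pass. All 10 pan-reactive genes tested rose with no overlap (median 2.39), led by Gfap and by Vim, a second intermediate filament gene, at 10.1, 11, 13.8 and 11.1 CPM in the intact libraries and 165, 292, 244 and 337 CPM at 3 d (4.49 ± 0.19). Lcn2, lipocalin 2, was at 0.338, 1.45, 2.29 and 2.97 CPM in the intact libraries and 37.3, 7.37, 5.67 and 11.7 CPM at 3 d (3.05 ± 0.69), and 2.23 without WT 3 d replicate 1, which stood highest. Osmr, the oncostatin M receptor gene, was at 2.72, 2.74, 2.56 and 3.4 CPM in the intact libraries and 20.9, 13.7, 15.4 and 21.9 CPM at 3 d (2.65 ± 0.17). The list's sum was 110 to 124 CPM in intact striatum and 1425 to 1959 CPM at 3 d.

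Of the sets called A1 and A2, defined elsewhere after endotoxin and ischaemia, 8 of 11 A1 genes rose (median 1.84) and 9 of 9 A2 genes (median 2.49). In the first set the GTPase genes Gbp2 and Iigp1 and the glycosyltransferase gene Ggta1 rose by 2.93 ± 0.25, 2.57 ± 0.32 and 2.35 ± 0.13, with Gbp2 at 1.21, 1.46, 1.93 and 0.991 CPM in the intact libraries and 16.6, 9.84, 7.68 and 9.73 CPM at 3 d. In the second, the membrane protein gene Cd109 was at 0.0534, 0.432, 0.29 and 0.256 CPM in the intact libraries and 5.98, 10.1, 7.88 and 10.6 CPM at 3 d (5.06 ± 0.35), and Emp1 and the cytokine gene Clcf1 rose by 3.35 ± 0.28 and 3.02 ± 0.38. Genes of transport and homeostasis, which buffer glutamate, potassium and water, rose in the other 8 cases (median of all 16 0.20). The water channel gene Aqp4 was at 88.7, 87.4, 80.6 and 74.9 CPM in the intact libraries and 134, 177, 164 and 237 CPM at 3 d (1.09 ± 0.14), and Aldh1l1, the connexin gene Gja1 and the potassium channel gene Kcnj10 rose by 0.53 ± 0.06, 0.42 ± 0.09 and 0.41 ± 0.10. With the cortical term 2 of these 8 calls were kept. Without WT 3 d replicate 1 this list had 2 lower calls and the A1 list 1, where neither had any; the A1 list also had 1 without WT intact replicate 1.

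**Figure D4:**
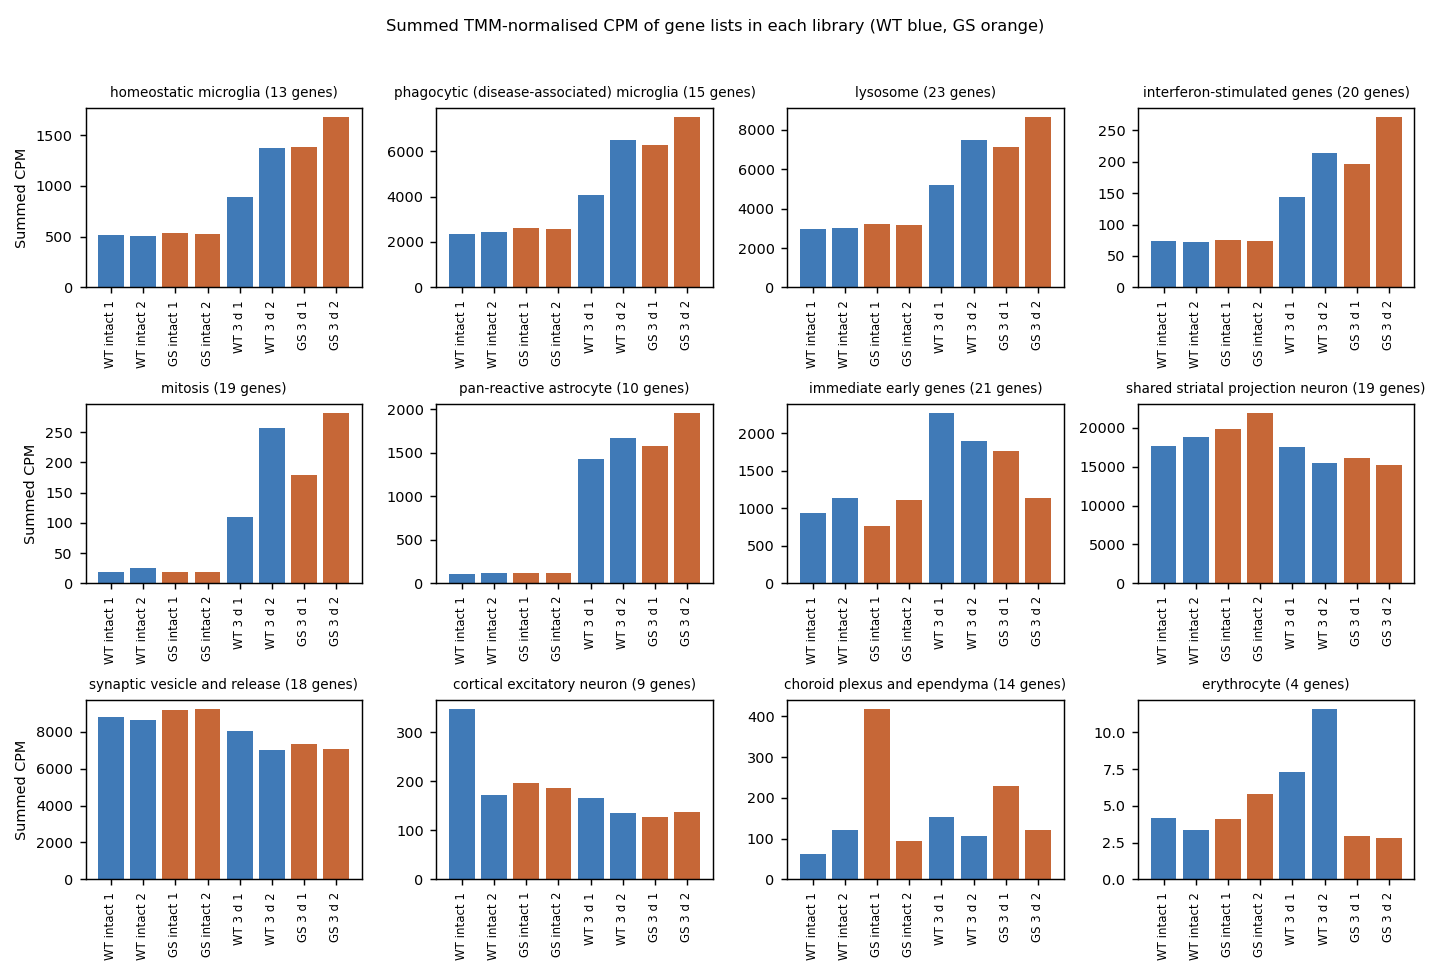
Summed TMM-normalised CPM (y axis from 0) of the genes of 12 lists in each of the 8 libraries, WT blue and GS orange. Microglia, phagocytic, lysosome, interferon and mitosis sums are lowest at 3 d in WT replicate 1, immediate early genes are highest there, and the cortical sum is highest in WT intact replicate 1.

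Matrix genes of scar and vessel wall rose in part. Of 14 collagen genes 8 rose (median 0.53), with the fibrillar collagen gene Col3a1 at 2.1, 1.46, 2.31 and 1.69 CPM in the intact libraries and 5.31, 8.16, 5.61 and 12.6 CPM at 3 d (2.05 ± 0.26) and Col12a1, Col1a2 and Col18a1 higher by 1.56 ± 0.15, 1.51 ± 0.19 and 1.12 ± 0.21. The list had no lower call with all libraries and 1 without WT intact replicate 2 or GS intact replicate 2. Glycoprotein and proteoglycan genes rose in 14 of 19 cases (median 0.84), with tenascin C (Tnc) at 2.8, 2.59, 2.97 and 1.73 CPM in the intact libraries and 12, 28.2, 25.7 and 38 CPM at 3 d (3.33 ± 0.30) beside Thbs1, and the collagen cross-linking genes Loxl2 and Lox higher by 2.79 ± 0.38 and 2.73 ± 0.28. This list had 1 lower call without WT 3 d replicate 2 and 0 with it. Proteases and inhibitors rose in 11 of 14 cases (median 1.36). The urokinase gene Plau was at 0.979, 0.939, 1.73 and 0.906 CPM in the intact libraries and 4.87, 14.1, 9.57 and 15.3 CPM at 3 d (3.27 ± 0.34), its receptor gene Plaur rose by 2.37 ± 0.27, and Mmp19 and Adam8 by 3.15 ± 0.27 and 2.68 ± 0.22.

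Integrin genes moved both ways, 11 of 16 up and 3 down (median 0.66). The leukocyte integrin gene Itgb2 was at 4.49, 4.79, 5.04 and 5.54 CPM in the intact libraries and 19.7, 28, 27 and 33.3 CPM at 3 d (2.44 ± 0.12), and Itgam, the CD11b gene, Itgb5 and Itgb3 rose by 2.03 ± 0.13, 1.61 ± 0.12 and 1.56 ± 0.18. Itga9 (-0.41 ± 0.07), Itga5 (-0.28 ± 0.06) and Itga3 (-0.40 ± 0.12) fell, the last not called without GS intact replicate 1, WT 3 d replicate 2 or GS 3 d replicate 1 (adjusted p of 0.0628 to 0.0732). Endothelial genes had a small median change (0.17), and 5 of 15 rose (33.3%, beside 20.7% of all genes) and 1 fell. Cdh5, VE-cadherin, was at 5.38, 4.17, 7.45 and 7.36 CPM in the intact libraries and 8.14, 10.3, 9.49 and 14.5 CPM at 3 d (0.82 ± 0.15), and Pecam1 and Ocln rose by 0.80 ± 0.15 and 0.73 ± 0.14. Genes of activated endothelium rose in 5 of 7 cases (median 1.44), with Lrg1 at 0.16, 0.301, 0.154 and 0.325 CPM in the intact libraries and 2.33, 1.23, 1.24 and 1.69 CPM at 3 d (2.77 ± 0.33), and the adhesion genes Icam1 and Vwf higher by 2.28 ± 0.15 and 1.47 ± 0.12. Of 10 pericyte and smooth muscle genes 4 rose and 1 fell (median 0.32). Among them Tagln was at 1.53, 1.2, 1.93 and 0.991 CPM in the intact libraries and 1.76, 7.17, 2.98 and 3.54 CPM at 3 d (1.43 ± 0.38), and 0.86 without WT 3 d replicate 2, while Acta2 rose by 1.30 ± 0.21.

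The lower calls in these vessel lists were weak. The transporter gene Mfsd2a of the blood-brain barrier (-0.46 ± 0.17) was not called without WT intact replicate 2, GS intact replicate 1 or 2, WT 3 d replicate 2 or GS 3 d replicate 1 or 2. The fenestration gene Plvap (-0.34 ± 0.10) was not called without WT intact replicate 2, GS intact replicate 1, WT 3 d replicate 2 or GS 3 d replicate 2. The pericyte receptor gene Pdgfrb (-0.26 ± 0.08) was not called without WT intact replicate 1, GS intact replicate 1, WT 3 d replicate 1 or GS 3 d replicate 1. Adjusted p then lay between 0.0506 and 0.156 for these 3 genes, and each of their lists had 0 lower calls.

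Immediate early genes, transcription factors that follow activity and stress within minutes, were raised at 3 d. Of 21 genes 17 rose and 1 fell (median 0.94). Atf3, a stress factor of injured neurons and glia, was at 0.356, 0.113, 0.427 and 0.239 CPM in the intact libraries and 3.99, 6.28, 5.25 and 7 CPM at 3 d (4.30 ± 0.30, edgeR adjusted p = 4.25e-06). Nr4a3, an orphan nuclear receptor, was at 13.5, 14.2, 7.88 and 14 CPM in the intact libraries and 109.99, 73.8, 69.7 and 51.5 CPM at 3 d (2.60 ± 0.18), and Maff rose by 2.44 ± 0.34. Fosl1 passed too, from 1 read in each intact library to 9 to 14 reads at 3 d. Nr4a2, another member of the NR4A family, fell (-2.38 ± 0.53), with values given below. WT 3 d replicate 1 was the highest injured library for 15 of 21. With the cortical marker level as a term 8 of the 17 rises and 0 of the falls were kept.

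Stress and death programmes rose in part. Heat shock genes rose in 7 of 12 cases (median 0.63). The inducible Hspa1a was at 6.61, 7.48, 13.8 and 16.3 CPM in the intact libraries and 20.9, 37.6, 37 and 27.9 CPM at 3 d (1.57 ± 0.22) and its near copy Hspa1b rose by 1.51 ± 0.18, and the 2 can share reads. Hspb1 and the endoplasmic reticulum chaperone gene Hspa5 rose by 1.26 ± 0.16 and 1.19 ± 0.09. Of 14 p53 target genes 9 rose and 1 fell (median 0.47). The death receptor gene Eda2r was at 0.142, 0.394, 0.137 and 0.273 CPM in the intact libraries and 0.788, 1.68, 1.79 and 2.91 CPM at 3 d (2.86 ± 0.43), and Fas and Pmaip1 rose by 1.64 ± 0.21 and 1.52 ± 0.14. Bbc3, the PUMA gene, fell from 6.8, 6.61, 7.11 and 5.23 to 3.82, 4.01, 3.52 and 3.04 CPM (-0.84 ± 0.13, edgeR adjusted p = 0.000535).

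Cell death genes rose in 14 of 17 cases (median 1.63), from Bcl2a1b, an anti-apoptotic gene of myeloid cells with near-identical copies, at 0.249, 0.639, 0.239 and 0.222 CPM in the intact libraries and 4.08, 7.42, 6.44 and 9.38 CPM at 3 d (4.34 ± 0.36), to the inflammasome genes Pycard, Casp4 and Casp1 (2.68 ± 0.19, 2.29 ± 0.39 and 2.05 ± 0.21). Genes of antioxidant defence and iron rose in 8 of 15 cases (median 0.31). Hmox1, heme oxygenase, was at 3.53, 4.62, 3.91 and 4.65 CPM in the intact libraries and 45.5, 39.7, 34.1 and 50.3 CPM at 3 d (3.34 ± 0.14), and the iron genes Slc11a1, Ftl1 and Cp rose by 2.82 ± 0.28, 1.44 ± 0.13 and 1.15 ± 0.22. This list had no lower call, and 1 without WT intact replicate 1 or WT 3 d replicate 1. Integrated stress response genes rose in 7 of 13 cases (median 0.30), 11 without WT 3 d replicate 1, and Chac1 fell (0 lower without GS intact replicate 1 or GS 3 d replicate 1, 2 without WT 3 d replicate 1). The cystine transporter gene Slc7a11 was at 23.2, 28.4, 26.2 and 22.2 CPM in the intact libraries and 46.1, 41.6, 48.3 and 62.2 CPM at 3 d (0.98 ± 0.12), and Mthfd2 rose by 0.74 ± 0.14.

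Nucleotides are the class of molecule injected. Their receptors, adenosine receptors and the enzymes that handle both formed 1 list, with 10 of 18 genes up and 3 down (median 0.35). The 3 that fell were adenosine receptor and ectonucleotidase genes. P2ry2, a receptor for ATP and UTP, was at 0.214, 0.15, 0.273 and 0.205 CPM in the intact libraries and 0.822, 1.16, 1.13 and 2.02 CPM at 3 d (2.57 ± 0.29). P2ry6, the UDP receptor gene of phagocytosing microglia, was at 2.28, 1.56, 2.22 and 1.83 CPM in the intact libraries and 8.77, 10.8, 10.2 and 12.5 CPM at 3 d (2.42 ± 0.15), and P2ry12, the ADP receptor gene of resting microglia, at 50.8, 47.8, 49.7 and 44.4 CPM in the intact libraries and 61.7, 103, 117 and 138 CPM at 3 d (1.09 ± 0.17). The adenosine receptor gene Adora3 rose by 1.87 ± 0.20. Adora2a of the indirect pathway, the ectonucleotidase gene Entpd3 and Adora1 fell by 0.63, 0.54 and 0.21. Adora1 was not called without GS intact replicate 1 or 2 or GS 3 d replicate 2 (adjusted p = 0.0618, 0.0789 and 0.0533).

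Growth factor and cytokine receptor genes rose in part. TGF-beta and BMP genes rose in 9 of 18 cases (median 0.20), with the secreted target gene Tgfbi at 2.83, 3.36, 3.14 and 2.9 CPM in the intact libraries and 7.15, 9.7, 13.1 and 18.3 CPM at 3 d (1.92 ± 0.20) and the receptor genes Tgfbr2 and Tgfbr1 higher by 1.59 ± 0.15 and 1.05 ± 0.16. Growth factor and binding protein genes rose in 10 of 21 cases and fell in 2 (median 0.26). Igfbp3 was at 6.11, 7.85, 5.76 and 5.06 CPM in the intact libraries and 13.2, 22.9, 17.1 and 22.6 CPM at 3 d (1.62 ± 0.19), and Lif, Hgf and Igfbp2 rose by 1.61 ± 0.26, 1.52 ± 0.15 and 1.44 ± 0.19. The 2 lower were Igfbp4 (-0.47 ± 0.13) and Igfbp6 (-0.33 ± 0.10), and Igfbp6 was not called without WT intact replicate 1, GS intact replicate 1 or 2, WT 3 d replicate 2 or GS 3 d replicate 2 (adjusted p of 0.0621 to 0.0741). Cytokine receptor genes with their Socs feedback rose in 13 of 18 cases (median 0.90). Socs3, the STAT3 feedback inhibitor gene, was at 1.03, 0.958, 0.632 and 0.82 CPM in the intact libraries and 10.7, 6.62, 5.9 and 7.4 CPM at 3 d (3.15 ± 0.19), and Csf2rb and Il4ra rose by 3.01 ± 0.19 and 2.29 ± 0.18. Socs2 fell (-0.68 ± 0.09) from 19.9, 16.8, 16.6 and 15.4 to 10.2, 10.8, 10.6 and 11.5 CPM.

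The 12 largest falls were small next to these rises, and most were genes of cortical excitatory neurons. Rtn4rl2, a homologue of the Nogo receptor gene (mm10 chromosome 2, positions 84871297 to 84888641), was at 6.39, 1.31, 1.21 and 1.4 CPM in the intact libraries and 0.308, 0.139, 0.228 and 0.495 CPM at 3 d (-2.99 ± 0.60, edgeR adjusted p = 0.00277). Slc17a7, the vesicular glutamate transporter VGLUT1 (mm10 chromosome 7, positions 45163921 to 45176139), was at 136, 15.6, 30.3 and 30.3 CPM in the intact libraries and 8.04, 5.43, 5.4 and 9.4 CPM at 3 d (-2.78 ± 0.56, edgeR adjusted p = 0.00287). Neurod2, a cortical transcription factor gene, was at 8.67, 1.62, 1.74 and 3.08 CPM in the intact libraries and 0.446, 0.478, 0.245 and 1.03 CPM at 3 d (-2.71 ± 0.58). In each, WT intact replicate 1 stood several times above the other intact libraries. That the 3 d libraries lay below all of them was required by the rule that picked these genes. Tbr1, of deep cortical layers, was at 14.2, 2.7, 4.42 and 4.12 CPM in the intact libraries and 1.76, 0.802, 0.864 and 1.8 CPM at 3 d (-2.22 ± 0.48), Nrn1, neuritin, at 14.9, 2.67, 4.12 and 4.05 CPM in the intact libraries and 2.06, 1.56, 1.71 and 1.98 CPM at 3 d (-1.73 ± 0.44) and Nr4a2 at 17.1, 2.54, 6.34 and 6.17 CPM in the intact libraries and 1.8, 0.941, 0.848 and 2.49 CPM at 3 d (-2.38 ± 0.53). Cck, the cholecystokinin gene of cortical neurons, was at 28.5, 7.34, 12.8 and 10.4 CPM in the intact libraries and 4.13, 3.58, 4.32 and 4.51 CPM at 3 d (-1.81 ± 0.35), Bmp3 at 3.53, 0.695, 1.61 and 1.16 CPM in the intact libraries and 0.497, 0.108, 0.196 and 0.623 CPM at 3 d (-2.29 ± 0.58) and Col24a1 at 6.13, 1.84, 2.36 and 2.55 CPM in the intact libraries and 1.1, 0.802, 0.75 and 1.19 CPM at 3 d (-1.71 ± 0.35). In these 6, as in Slc17a7, WT replicate 1 was the highest and WT replicate 2 the lowest of the intact libraries.

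Without WT intact replicate 1, the log2 fold changes were smaller, at -1.72 for Slc17a7, -2.14 for Rtn4rl2, -1.89 for Neurod2, -1.53 for Nr4a2, -1.57 for Bmp3, -1.45 for Tbr1, -1.21 for Cck and -0.92 for Nrn1, and all 8 were still called (edgeR). Neurod2 was -3.41 without GS 3 d replicate 2. With the cortical marker level as a term in the fit, Slc17a7 was at -0.28 (edgeR adjusted p = 0.257), Rtn4rl2 at -0.93 (edgeR adjusted p = 0.161) and Nrn1 at 0.17 (edgeR adjusted p = 0.741), and none of the 12 passed. Slc17a7, Neurod2, Tbr1 and Nrn1 are among the markers averaged in that term. Their values with it were therefore partly fixed in advance, unlike those of Rtn4rl2, which is not on the list. The cortical term is confounded with the stage here, since every intact library has a higher cortical score than every 3 d library. The score also varies within each stage. Loss of cortical tissue from the dissection and loss of cortical transcripts after injury therefore cannot be told apart. Prss12, a synaptic protease gene, had the same order, with 4.51, 1.45, 2.07 and 2.12 CPM in the intact libraries and 0.703, 0.694, 0.277 and 0.586 CPM at 3 d (-2.18 ± 0.35). The last 2 of the 12 did not. Cstad was at 2.69, 1.8, 1.9 and 0.82 CPM in the intact libraries and 0.6, 0.463, 0.489 and 0.44 CPM at 3 d (-1.82 ± 0.30) and the connexin gene Gjd3 at 2.05, 1.33, 2.07 and 2 CPM in the intact libraries and 0.651, 0.509, 0.75 and 0.275 CPM at 3 d (-1.76 ± 0.29). With the cortical term Cstad was at -1.39 (edgeR adjusted p = 0.0672) and Gjd3 at -1.64 (edgeR adjusted p = 0.0584).

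Over the cortical list 7 of 9 genes fell (median -1.88) and Rorb, a nuclear receptor gene that astrocytes also express, rose (0.46 ± 0.11), against 19.5% lower among all genes. Genes of striatal neurons fell by little. Of 19 genes shared by the projection neurons 12 fell and 1 rose (median -0.27). Rasgrp2, a striatal exchange factor gene, was at 291, 283, 317 and 333 CPM in the intact libraries and 201, 192, 197 and 177 CPM at 3 d (-0.67 ± 0.07, edgeR adjusted p = 3.31e-05). Adcy5, the striatal adenylyl cyclase, was at 1549, 1667, 1914 and 1989 CPM in the intact libraries and 1314, 1159.9, 1242 and 1136 CPM at 3 d (-0.55 ± 0.08), and Pde1b and Ppp1r1b fell by 0.45 and 0.43. The 1 that rose, Foxp2 (0.20 ± 0.07), was not called without WT intact replicate 1 or 2, GS intact replicate 1 or WT 3 d replicate 1 (adjusted p of 0.0716 to 0.127). The list's sum was 17636 to 21941 CPM in intact striatum and 15271 to 17481 CPM at 3 d.

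Direct pathway genes fell in 4 of 7 cases and rose in 1 (median -0.25). The muscarinic receptor gene Chrm4 was at 102, 109, 119 and 124 CPM in the intact libraries and 77.9, 71.2, 76.3 and 61.3 CPM at 3 d (-0.66 ± 0.09), and Pdyn, the dynorphin precursor gene, was at 75.9, 86.2, 66.6 and 55.4 CPM in the intact libraries and 118, 106, 107 and 80.7 CPM at 3 d and rose (0.54 ± 0.10), with 1 injured library inside the intact range. The dopamine receptor genes Drd1 (-0.03 ± 0.08) and Drd2 (-0.27 ± 0.11) did not pass. Indirect pathway genes fell in 2 of 6 cases, and in 4 without WT 3 d replicate 1 (median -0.25). Adora2a, the adenosine receptor gene of indirect pathway neurons, was at 344, 384, 469.5 and 484 CPM in the intact libraries and 282, 263, 288 and 247 CPM at 3 d (-0.63 ± 0.09), and Sp9 fell by 0.54. Interneuron genes fell in 8 of 12 cases (median -0.40), with the parvalbumin gene Pvalb at 8.69, 15, 11.6 and 8.25 CPM in the intact libraries and 6.31, 5.2, 5.32 and 7.24 CPM at 3 d (-0.85 ± 0.19) and Th, Lhx8 and Slc18a3 lower by 0.69, 0.51 and 0.45.

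Genes of synapse and axon showed the same small falls. Voltage-gated channel genes fell in 16 of 20 cases (median -0.31), and Kcnh4 was at 71, 67.2, 78.9 and 76.1 CPM in the intact libraries and 46, 48.9, 47.6 and 37.9 CPM at 3 d (-0.70 ± 0.09) and Scn4b, a sodium channel subunit gene of projection neurons, at 1665, 1658, 1988 and 2210.1 CPM in the intact libraries and 1295, 1135, 1182 and 1145 CPM at 3 d (-0.65 ± 0.09). Vesicle and release genes fell in 13 of 18 cases (median -0.33). The largest, Stx1a, was at 47.3, 26, 33.6 and 29.8 CPM in the intact libraries and 23.3, 22.8, 23.3 and 19.7 CPM at 3 d (-0.62 ± 0.15), and -0.41 without WT intact replicate 1, its highest library. Unc13a and Syn1 fell by 0.46 and 0.41. Neuronal cytoskeleton genes fell in 9 of 12 cases (median -0.28), with the neurofilament gene Nefm at 179, 197, 239 and 274 CPM in the intact libraries and 154, 122, 139 and 132 CPM at 3 d (-0.69 ± 0.11). Glutamate and GABA receptor genes fell in 10 of 22 cases and rose in 1 (median -0.17), with the NMDA receptor gene Grin1 at 592, 574, 662 and 635 CPM in the intact libraries and 502, 429, 437 and 369.7 CPM at 3 d (-0.51 ± 0.09), and Gabra5 at 20.01, 21.3, 19.3 and 15 CPM in the intact libraries and 16.8, 12.9, 11.6 and 11.8 CPM at 3 d (-0.51 ± 0.10). The 10 became 6 without GS intact replicate 1, 5 without WT 3 d replicate 2 and 6 without GS 3 d replicate 1. The 1 that rose was Grm3 (0.31 ± 0.06), a receptor gene that astrocytes also express, and without WT 3 d replicate 2 there were 2.

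With the cortical term the falls kept were 5 of 12 among shared projection neuron genes, 2 of 4 in the direct pathway, 3 of 8 among interneuron genes, 7 of 16 among channels, 5 of 13 among vesicle genes, 5 of 9 in the cytoskeleton and 3 of 10 among receptors. Of the striatal genes leading these lists, Rasgrp2 was at -0.71, Chrm4 at -0.82, Adora2a at -0.81, Kcnh4 at -0.79, Scn4b at -0.69 and Nefm at -0.80 with that term, each still called (edgeR), while Stx1a was at -0.13 (edgeR adjusted p = 0.694). The term is built from the cortical list, so values with it cannot settle how far dissection enters any of these falls. Immune lists had higher sums in the same 4 libraries, and their part in these falls was not tested.

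Oligodendrocyte genes rose in shares not above that of all genes. Of 17 myelin genes 3 rose (17.6%) and 2 fell (median -0.06), beside 20.7% higher and 19.5% lower among all genes. The iron carrier gene Trf was at 219, 233, 231 and 234 CPM in the intact libraries and 320.3, 511, 542 and 689 CPM at 3 d (1.14 ± 0.15), and Ermn and Cldn11 rose by 0.30 ± 0.09 and 0.26 ± 0.06. Ermn was not called without WT intact replicate 1 or GS intact replicate 1 or 2 (adjusted p of 0.0511 to 0.0973). The 2 lower were Opalin (-0.57 ± 0.21) and Hapln2 (-0.31 ± 0.10). Opalin was called without GS intact replicate 2 or GS 3 d replicate 2 but was lost without each of the other 6. Hapln2 was not called without WT intact replicate 2, GS intact replicate 2, either WT 3 d library or GS 3 d replicate 2 (adjusted p of 0.0507 to 0.136 for both genes). Of 13 precursor genes 2 rose (15.4%) and 1 fell (median 0.16). Ptprz1, a receptor phosphatase gene shared with astrocytes, was at 301, 303, 311 and 318 CPM in the intact libraries and 385, 428, 441 and 528 CPM at 3 d (0.52 ± 0.07). The other that rose, Gpr17 (0.42 ± 0.14), was called without WT 3 d replicate 1 but was lost without each of the other 7 libraries (adjusted p of 0.050 to 0.141). The list had 5 higher calls without WT 3 d replicate 1, the injured library with the lowest precursor sum. The 1 lower call, Cacng4, was lost without WT intact replicate 2 or any of 5 others (GS intact replicate 1 or 2, WT 3 d replicate 2, GS 3 d replicate 1 or 2; adjusted p of 0.066 to 0.124).

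Median changes of energy metabolism genes were small. Of 19 genes of glycolysis and lactate 4 rose (21.1%) and 3 fell (median -0.04), beside 20.7% higher and 19.5% lower among all genes. The myeloid hexokinase gene Hk3 was at 1.62, 1.37, 1.9 and 0.923 CPM in the intact libraries and 5.19, 10.3, 9.12 and 13.2 CPM at 3 d (2.68 ± 0.28), and Hk2 and the lactate transporter genes Slc16a3 and Slc16a1 rose by 2.14 ± 0.14, 1.00 ± 0.13 and 0.71 ± 0.10. Hk1, the neuronal enolase gene Eno2 and Pfkm fell by 0.25, 0.23 and 0.19, with 0 of the 3 called without GS intact replicate 1. Eno2 was also lost without WT intact replicate 2, GS intact replicate 2, WT 3 d replicate 2 or GS 3 d replicate 2, and Pfkm without WT 3 d replicate 2 (adjusted p of 0.0510 to 0.0761 for the 3 genes). Nuclear genes of oxidative phosphorylation fell in 8 of 22 cases and rose in 0 (median -0.12), with Cox4i1 at 322, 322, 342 and 332 CPM in the intact libraries and 273, 284, 288 and 263 CPM at 3 d (-0.25 ± 0.05). Without WT intact replicate 1, GS intact replicate 2 or GS 3 d replicate 2 there were 5 and without GS intact replicate 1 there were 4, and with the cortical term 0.

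The 4 injured libraries were not alike. Of 413 genes that rose at least 4-fold, WT 3 d replicate 1 was the lowest injured library for 302 and the highest for 34, while GS 3 d replicate 2 was the highest for 282 and the lowest for 47. WT 3 d replicate 1 was lowest for all 13 homeostatic microglia genes and 19 of 20 interferon genes, and highest for 16 of 19 shared projection neuron genes. WT 3 d replicate 2 lay between these, being highest for 84 of the 413 and lowest for 22, and GS 3 d replicate 1 was highest for 13 and lowest for 42. How much injured tissue each dissection held was not tested. With each of the 8 libraries left out in turn, 5757 to 7578 genes were called.

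The response was compared between genotypes by the interaction of genotype and stage, with 2 libraries a group. No gene passed (0.0% called by edgeR, lowest adjusted p = 0.714), while 1258 genes (6.74%) had an unadjusted p under 0.05. DESeq2 called 4 and limma-voom 0. The medians over lists were higher in GS for homeostatic microglia (1.37 against 0.92 in WT), lysosome (1.26 against 0.87) and mitosis (3.61 against 3.02), and WT 3 d replicate 1 was the lowest injured library for all of these genes. They were higher in WT for complement (2.07 against 1.81 in GS), pan-reactive astrocytes (2.29 against 2.13), activated endothelium (1.61 against 1.04) and immediate early genes (1.09 against 0.79). These differences between medians were not tested. The 2 genes of lowest p were Gjc3, the oligodendrocyte connexin 29 gene, and the predicted gene Gm16168. Gjc3 was at 65.5, 73.1, 61 and 62.8 CPM in the intact libraries and 37.9, 42.8, 58.7 and 64.4 CPM at 3 d, and its log2 fold change was -0.78 in WT and -0.01 in GS. The difference of 0.77 ± 0.13 was called by DESeq2 (adjusted p = 0.00681). Gm16168 was at 23.2, 25.2, 18.9 and 18.2 CPM in the intact libraries and 8.38, 8.34, 11.1 and 12.1 CPM at 3 d, with a difference of 0.85 ± 0.15 (DESeq2 adjusted p = 0.0408).

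Leaving out a library changed this count. Without WT 3 d replicate 2 edgeR called 5 genes (C3, Mt1, Ptgds, Rbm3 and Slc24a4), and without GS 3 d replicate 2 it called 1, the predicted gene Gm40369; these names were chosen after their values were seen. With all 8 libraries in the fit C3 was 8.39 in WT and 4.33 in GS, and its high value is that of WT 3 d replicate 1. With WT 3 d replicate 2 left out that library alone stands for injured WT striatum, and it is assumed to vary like the other groups. Lrrk2 itself (NCBI Gene 66725, mm10 chromosome 15, positions 91672791 to 91816124) was at 135, 163, 168 and 217 CPM in the intact libraries and 208, 157, 171 and 178 CPM at 3 d and did not pass (0.08 ± 0.12, edgeR adjusted p = 0.661). Its stages overlapped in both genotypes. The counts hold no read sequence, so they check no genotype label.

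Set beside the other times, most genes of cell division were higher at 3 d. All 19 mitosis genes were higher than at 6 h (median 2.38) and all 19 higher than at 15 d (median 1.41), against 24.4% and 6.65% of all genes higher at 3 d. These tests come from a fit of all 16 libraries, and they share the 3 d libraries with each other and with the comparison to intact striatum. Of the DNA replication genes 14 of 19 were higher than at 6 h and 14 higher than at 15 d. Homeostatic microglia genes were higher than at 6 h in 13 of 13 cases, and against 15 d 1 was higher and 1 lower. Lysosome genes were higher than at 6 h in 23 of 23 cases, and against 15 d 1 was higher and 7 were lower, beside 6.37% of all genes. Phagocytic microglia genes were lower at 3 d than at 15 d in 7 of 15 cases and MHC class I genes in 4 of 10. Border-associated macrophage genes were higher at 3 d than at 15 d in 4 of 7 cases and monocyte genes in 4 of 5, with 1 lower. MHC class II genes were lower in 5 of 5 cases at 3 d than at 15 d (median -2.07). Cd74 stood at 2.91, 6.57, 8.69 and 12.7 CPM in the 3 d libraries, and by 15 d at 88.8, 39.5, 42.7 and 43.5 CPM.

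Genes above all 3 other stages numbered 461, or 2.47% of those tested, and those below all 3 numbered 293, or 1.57%. With a mean of at least 1 CPM, Msr1, Thbs1, Lcn2, Cep55, Hmmr and Fignl1 stood out most among the former. At 6 h Msr1 stood at 1.65, 2.08, 2.59 and 1.08 CPM, and at 15 d it stood at 2.76, 4.09, 5.5 and 9.51 CPM, a log2 difference of 4.19 ± 0.30 and 2.71 ± 0.27 (edgeR adjusted p = 1.57e-08 and 1.75e-05). Thbs1 stood at 0.921, 1.88, 6.26 and 2.91 CPM in the 6 h libraries, and in those of 15 d it stood at 2.08, 4.17, 2.32 and 3.91 CPM. Cep55 and Hmmr serve the late steps of division, and Hmmr stood at 0.887, 0.904, 0.77 and 0.592 CPM in the 6 h libraries, at 3.32, 8.62, 4.97 and 8.12 CPM in the 3 d ones, and by 15 d at 1.31, 1.75, 1.32 and 1.46 CPM. For Msr1, Thbs1 and Hmmr every 3 d library lay above every library of the other stages. Fignl1, a DNA repair gene, was at 0.908, 4.26, 2.9 and 4.84 CPM at 3 d, where WT 3 d replicate 1 was as low as the 6 h and 15 d libraries.

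Of the genes lowest at 3 d, Bbc3 stood at 7.37, 8.73, 6.8 and 6.53 CPM in the 6 h libraries, and in those of 15 d at 5.44, 5.71, 6.66 and 6.23 CPM; each 3 d library lay below these. Sgk2, a kinase gene, was at 2.26, 1.26, 1.55 and 1.06 CPM in the intact libraries and 0.463, 0.648, 0.881 and 0.586 CPM at 3 d, while by 15 d it stood at 1.82, 2.11, 1.76 and 1.59 CPM. The others were Adamtsl2, Zfhx2os and the uncharacterised A330015K06Rik and LOC102636815, of which Adamtsl2 and A330015K06Rik were not called against intact striatum without some libraries. For A330015K06Rik these were WT intact replicate 2, GS intact replicate 2, WT 3 d replicate 2 and GS 3 d replicate 1 (adjusted p of 0.0877 to 0.135), and for Adamtsl2 WT intact replicate 1, GS intact replicate 1, WT 3 d replicate 1 and GS 3 d replicate 1 (adjusted p of 0.0524 to 0.0836). Glutamate and GABA receptor genes were higher at 3 d than at 15 d in 12 of 22 cases. Lrrk2 stood at 135, 136, 135 and 136 CPM in the 6 h libraries, and in those of 15 d at 112, 109.9, 123 and 113 CPM, so that 3 d was higher by 0.40 ± 0.10 than 6 h (edgeR adjusted p = 0.00333) and by 0.64 ± 0.10 than 15 d (edgeR adjusted p = 0.000808).

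**Figure D5:**
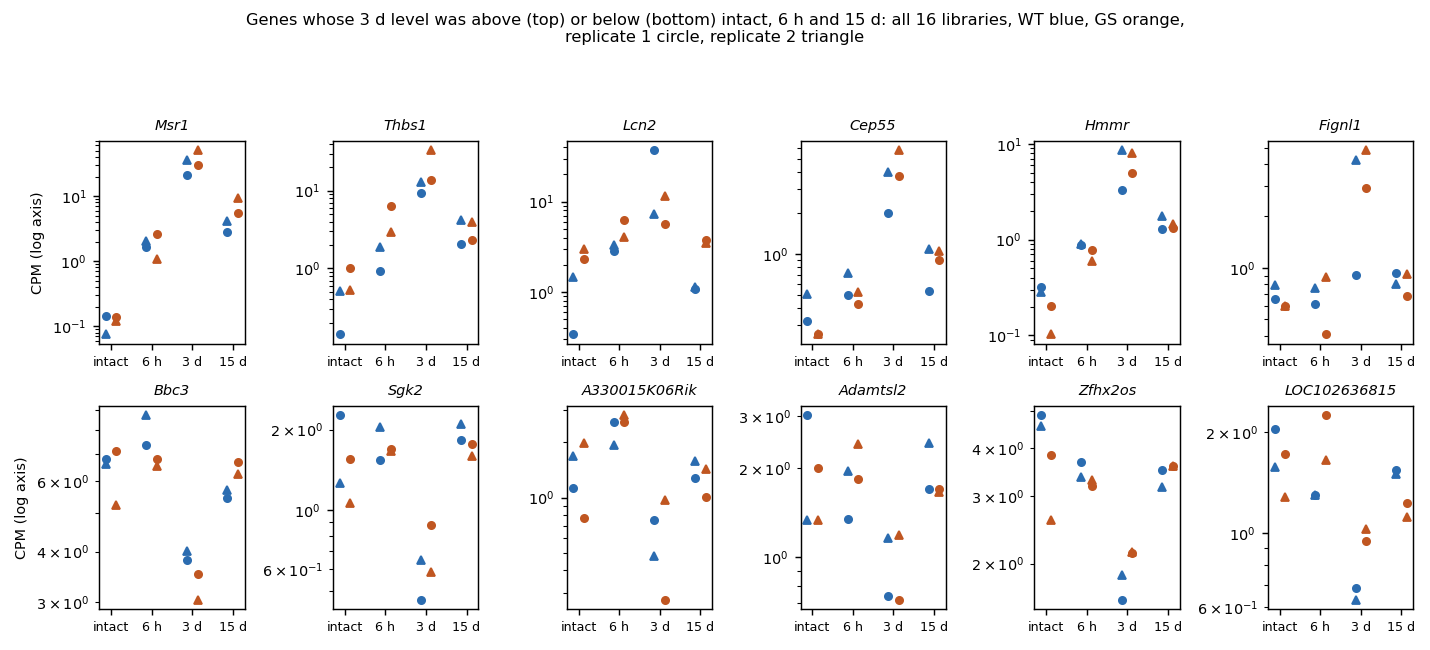
TMM-normalised CPM (log axis) in all 16 libraries by stage, for 6 genes above intact, 6 h and 15 d at 3 d (top) and 6 genes below all of them (bottom); WT blue, GS orange, circles replicate 1, triangles replicate 2. Msr1 is at 21.4 to 51 CPM at 3 d and under 10 CPM in every other library.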

How the data were processed

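Per the labels' protocols, RNeasy kits gave the RNA and a TruSeq RNA kit the libraries. The authors deposited raw read counts per gene, per the file headers, for 19457 genes with NCBI Gene IDs. The submitters' processing notes name FastQC 0.11.7 and mm10. Which aligner and counter were used, and whether strand was, is not stated in the sources used here. Overlapping, antisense and near-copy genes can therefore share reads. Columns named NT were taken as WT, the 1 genotype in the labels besides GS. All genes listed have 1 or more counts in each of the 16 libraries, so genes silent in any library were not analysed here (76 of 830 listed genes are among those outside the table).

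The tests used edgeR 4.0.16 (R 4.3.3). In the 8 libraries filterByExpr kept 18670 genes, normalised by TMM, and a quasi-likelihood model with stage and genotype was fitted (5 residual degrees of freedom, common biological coefficient of variation 11.5%). The interaction was tested in the same libraries, and 3 d against 6 h and 15 d in all 16 (18813 genes). P-values were adjusted by Benjamini-Hochberg over all genes tested, at 0.05. A standard error is the size of a log2 fold change over the root of its F statistic. CPM are TMM-normalised over 16 libraries. Counts of replicates varied more than sampling alone gives (chi-square over its degrees of freedom 12.0 to 30.0), so the spread between libraries, more than depth, sets the precision. Positions come from RefSeq on GRCm38.p6 (the mm10 build) through the Gene ID and are 1-based. The fits were tested on simulated data.

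Genes named were Lrrk2, the 12 that rose and the 12 that fell by the most on the log2 scale (called, mean of at least 1 CPM, no overlap of libraries, same direction in each genotype), up to 4 a direction of each of 57 lists, or the first 2 measured, the 2 of lowest interaction p, and 6 a direction with the largest difference from all other stages. Drd1, Drd2, Apoe, Foxj1, Ttr and Folr1 were added after their values were seen. The members and lists were chosen with earlier results of these data known, and lists share members. Alternatives were DESeq2 1.42.0, limma-voom (limma 3.58.1), other scalings, filters, covariates and sample sets, and each library left out. Values of some genes that the naming rule picked are not reported here.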

Additional observations from a re-analysis of the deposited data

Results flagged for a closer look

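The alpha-globin genes Hba-a1 and Hba-a2, near-identical copies that mark red blood cells, lay on opposite sides of their intact levels in the 2 genotypes. Hba-a1 was at 1.5, 0.808, 1.47 and 1.96 CPM in the intact libraries and 2.28, 4.46, 1.13 and 1.03 CPM at 3 d, and Hba-a2 at 0.57, 0.47, 0.632 and 1.03 CPM in the intact libraries and 1.35, 2.11, 0.603 and 0.568 CPM at 3 d. In WT both injured libraries lay above both intact ones, and in GS both lay below. On the log2 scale the response in GS, less that in WT, was -2.22 ± 0.54 for Hba-a1 and -2.23 ± 0.51 for Hba-a2. Neither passed in edgeR (adjusted p = 0.714 for both), so a difference between genotypes is not shown, and since reads can be shared between the copies the 2 genes count as 1 signal. Hba-a1 stood at 18, 21.4, 17.2 and 9.55 CPM in the 6 h libraries and by 15 d at 1.42, 1.22, 0.739 and 3.78 CPM. How much blood each dissection held was not tested.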

How the results depend on the processing

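The count of genes called at 3 d against intact striatum was 7517. It was 2603 with the cortical marker level as a term (64.8% higher, against 51.5%), 1230 with glmTreat at 1.5-fold, 3218 in WT alone, 4965 in GS alone and 5757 to 7578 with each library left out. RLE size factors, DESeq2, limma-voom, no or a stricter filter, no genotype term and all 16 libraries gave 7116 to 8650. With the cortical term Nrn1 (0.17) and Neurod6 (0.10) reversed, uncalled. Both are among the markers averaged in that term, and the cortical level moved with the stage in these libraries. The genotype difference had 0 calls, 4 with DESeq2 and 0 to 5 with a library left out. For 3 d against 15 d, 2451 genes were called, 1536 in the groups compared alone, 1298 without WT 15 d replicate 2, 1294 without GS 15 d replicate 2 and 1294 to 2793 over all libraries left out. For 3 d against 6 h the range was 8219 to 9103. Of 257 named genes that were called, 231 were called without each library.

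Replicate numbers did not pair the samples (correlation of deviations between intact and 3 d 0.0093 in WT and 0.0142 in GS, and between 3 d and the later or earlier stage 0.0116 to 0.178, highest for WT 3 d with 15 d; a group has 2 numbers). With the replicate number as a block 6863 genes were called, 6754 of them shared, and 0 for the genotype difference, 9133 against 6 h and 2472 against 15 d. Rises from few intact reads (Msr1, Il1rn, C3) are limited by depth.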

Other observations

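Genes of motile cilia rose at 3 d while genes of the choroid plexus did not pass the test. Of 14 genes of choroid plexus and ependyma, the ciliated lining of the ventricle, 7 rose and 0 fell (median 1.17). Dnah12, an axonemal dynein gene, was at 0.285, 1.39, 0.461 and 0.359 CPM in the intact libraries and 5.28, 6.68, 4.86 and 3.66 CPM at 3 d (3.08 ± 0.36, edgeR adjusted p = 9.26e-05). Tmem212 was at 0.0356, 0.789, 0.29 and 0.0854 CPM in the intact libraries and 2.02, 3.53, 2.64 and 1.17 CPM at 3 d (3.01 ± 0.59), Ccdc153 at 0.16, 1.31, 0.495 and 0.393 CPM in the intact libraries and 3.24, 6.79, 5.07 and 2.22 CPM at 3 d (2.90 ± 0.49), and Cfap126 rose by 2.17 ± 0.31. WT intact replicate 2 was the highest intact library for these 4 genes. Without it Dnah12 was 3.72, Tmem212 4.01 and Ccdc153 3.60. Foxj1, the master regulator gene of motile cilia, rose by 1.86 ± 0.22. The choroid genes did not pass, with -0.57 ± 0.55 for the thyroxine carrier gene Ttr and 0.04 ± 0.67 for Folr1, and the list's sum of 61.1 to 419 CPM in intact striatum and 106 to 229 CPM at 3 d overlapped. How much ventricular wall each dissection held was not tested. With the cortical term 4 of the 7 calls were kept.

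Genes of ribosome biogenesis, which dividing cells need, differed little from intact striatum. Of 14 genes 4 rose (28.6%, beside 20.7% of all genes) and 0 fell (median 0.09). Nop58 was at 21.7, 22, 21.1 and 21.8 CPM in the intact libraries and 32.2, 30.9, 28.5 and 26 CPM at 3 d (0.44 ± 0.07), and Npm1, Fbl and Ncl rose by 0.42 ± 0.06, 0.34 ± 0.09 and 0.20 ± 0.05. With the cortical term 1 of the 4 was kept.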
